A study of Ovis aries with 57 samples.

Results

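The glandular epithelium (GE) of the sheep uterus was compared between day 10 and day 20 of pregnancy, across all genes of the deposited GE expression table. The comparison rests on 8 of the 57 samples of the study, the 4 GE libraries of each of these days, chosen by their labelled tissue and day. The study sampled the GE, the luminal epithelium (LE) that lines the uterine cavity, and the conceptus of pregnant ewes, with LE and GE at days 10, 12, 14, 16 and 20. Glands were picked out by eye on stained frozen sections of the uterine horn and cut out by laser, and their RNA was amplified by single primer isothermal amplification before sequencing, in the same way on both days. Both groups are ewes with no labelled genotype or treatment, so the day is the only labelled difference between them. Samples of non-pregnant ewes were not used here, and time and the presence of a conceptus cannot be told apart.

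Uterine glands are tubes of secretory epithelium that open into the uterine cavity. In ruminants the conceptus floats free and elongates before it attaches, and it lives on the proteins, minerals and other nutrients that the glands release. Progesterone acts on the glands first, and the trophoblast then releases interferon tau, a type I interferon that signals pregnancy in ruminants and induces antiviral genes in the uterus.

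Expression is given in RPKM, the exon reads of a gene per kilobase of exon and per M (1000000) mapped reads, as deposited by the authors. The GE libraries held 14.19 to 20.50 M mapped reads on day 10 and 8.28 to 19.72 M on day 20, as recovered from the steps of low RPKM values. Mitochondrial genes took 5.00 to 17.4% of the exon reads on day 10, most in replicate 04, and 1.31 to 3.13% on day 20, so this share did not overlap between the days. With mitochondrial genes left out of the scaling 240 genes rose and 457 fell, against 264 and 382 as deposited. Correlations of log2(RPKM + 1) between libraries were 0.815 to 0.946 within a day and 0.737 to 0.821 between days, and no pair of libraries was identical. Within a day the pairs with day 10 replicate 04 were lowest, at 0.815, 0.847 and 0.827, and all others were at 0.889 or more. Library values below stand in the order of replicates 02, 04, 06 and 08 for day 10 and 018, 020, 022 and 024 for day 20. Means are given with the SD of 4 libraries.

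Markers were read against the label. The epithelial adhesion protein EPCAM stood at 238 ± 36.5 RPKM on day 10 and 168 ± 46.9 RPKM on day 20, and of 9 epithelial markers tested 0 were called in limma, with 2.00 at an unadjusted p under 0.05, and up to 2 fell in the other settings tried. LGALS15, a galectin that the LE releases in large amounts, was at 0 in every day 10 GE library and at 0.50, 0.83, 1.61 and 0 RPKM on day 20, against 8507 ± 5400.3 RPKM in the LE of day 20. The summed RPKM of 10 stromal markers tested and the others on their list ranged from 117 to 184 on day 10 and from 99.6 to 211 on day 20. For lymphocyte markers, 12 of them tested, the sums were 57.3 to 129 and 48.5 to 167 RPKM, so lymphocyte genes were detected in the captures of both days. Endothelial sums were 7.25 to 13.5 and 5.85 to 17.8 RPKM with 4 genes tested, and smooth muscle sums 2.42 to 5.55 and 0.29 to 2.85 RPKM with 1 tested. Red cell markers summed to at most 0.39 RPKM, and trophoblast markers to 0.27 to 1.57 and 2.27 to 4.27 RPKM, where PTGS2 was the 1 gene tested. Of 9 genes chosen as typical of the LE 5 were tested and 2 rose, PTGS2 and SLC5A1, with sums of 3.60 to 42.4 and 20.7 to 35.7 RPKM. Of the 27 stromal, endothelial, smooth muscle and lymphocyte markers tested 0 were called by limma, by edgeR or by DESeq2 on recovered reads, while 3 had an unadjusted p under 0.05 in limma. With only the libraries of days 10 and 20 in the fit 1 stromal marker fell, and macrophage markers are given with the complement genes. In such bulk samples, fewer cells of a type and less RNA per cell cannot be told apart.

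Between days 10 and 20, 264 genes rose (2.63% of the 10049 tested) and 382 fell (3.80%), by limma on log2(RPKM + 1) with a Benjamini-Hochberg adjusted p under 0.05. Together these were 646 genes, or 6.43% of those tested, and 109 of the 646 carry no symbol. In 588 of the 646 the libraries did not overlap between the days. Among all genes tested, 7.88% had every day 20 library higher and 8.97% every day 20 library lower. The calls rest on the same libraries, so the 588 are no separate support. The largest named rises and falls were chosen among genes without overlap, so their separation is no support either. Over all genes tested, the median of the log2 change was -0.04. The largest named rises were led by GRP, SERPINA14 and IFIT1, and the largest named falls by DEFB112, TDGF1 and MRPS36, all described below. Of the 15 largest named rises, 4.53 to 9.57 on the log2 scale, 7 are on the interferon list. RIMKLB, an enzyme that joins other molecules to glutamate and stands on none of the lists, was also among them, from 0.40 ± 0.474 to 37.7 ± 6.19 RPKM (adjusted p = 3.18e-06). Each library was treated as 1 animal, which the protocol's capture per animal implies but the labels do not number. The p-values thus rest on the spread between libraries of a day, taken over all 20 GE libraries of the 5 days. With only the libraries of days 10 and 20 in the fit, 433 genes rose and 549 fell, of 8395 tested.

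Genes for products that uterine glands release held the steepest rises. GRP, which encodes gastrin-releasing peptide, stood at 6.96, 0, 8.23 and 12.1 RPKM on day 10 and 6094, 5545, 6969 and 1349 RPKM on day 20. Its 4 day 20 libraries were all far above those of day 10, with replicate 024 lowest, and the rise came to a log2 change of 9.57 ± 1.25 (SE, adjusted p = 3.41e-05). SERPINA14, the uterine serpin or uterine milk protein of ruminants, stood at 5.10, 2.91, 0.19 and 1.63 RPKM on day 10 and 2829, 1208, 4611 and 655 RPKM on day 20. Here too the days were apart and replicate 024 was lowest (log2 change 9.25, adjusted p = 2.29e-06). Osteopontin, listed as OST, is a secreted protein that binds integrins and stood at 11.6, 12.6, 3.55 and 34.4 RPKM on day 10 and 198, 291, 617 and 546 RPKM on day 20. Replicate 08 was the highest of day 10 and still below every day 20 library (log2 change 4.86, adjusted p = 2.05e-05).

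INHBA, which encodes the subunit of activin A, was near or at 0 on day 10, with 0.51, 0.050, 0 and 0 RPKM, and reached 54.8, 74.6, 78.1 and 37.2 RPKM on day 20. The change was 5.73 ± 0.62 (SE) on the log2 scale, with adjusted p = 2.62e-06. The chemokine CXCL14 was listed at 0, 0.82, 0 and 0 RPKM on day 10 and at 103, 106, 129 and 15.3 RPKM on day 20, again with replicate 024 lowest (log2 change 5.90, adjusted p = 8.69e-04). RBP4, the carrier of retinol in blood and uterine fluid, rose from 4.17 ± 1.78 to 75.2 ± 19.9 RPKM, by 3.90 ± 0.75 (SE) on the log2 scale (adjusted p = 0.00185). Cystatin C, an inhibitor of cysteine proteases listed as ENSOARG00000006202, rose from 34.6 ± 20.1 to 146 ± 30.4 RPKM (adjusted p = 0.00933), and DKK1, a secreted Wnt antagonist, from 0.31 ± 0.187 to 3.19 ± 0.865 RPKM (adjusted p = 0.00288).

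Of 38 tested genes on the list of gland secretions 8 rose and 2 fell, against 2.63 and 3.80% of all genes, shares that hold for every list count below, and the list's median log2 change was 0.57. The summed RPKM of the list was 290.5 to 571 on day 10 and 3122 to 12901 on day 20. Most of the sum in each day 20 library came from GRP, SERPINA14 and osteopontin. It is no measure of the list as a whole, where 28 of the 38 tested were not called. The complement inhibitor SERPING1 was the last of the 8 that rose, and the 2 that fell were SERPINA1 and TTR. SERPINA1, which encodes the protease inhibitor alpha-1-antitrypsin, stood at 32.0, 10.1, 16.6 and 30.6 RPKM on day 10 and 0, 0.040, 0.060 and 0 RPKM on day 20 (log2 change -4.37, adjusted p = 2.14e-06). TTR, a carrier of thyroid hormone and retinol-binding protein, went from 7.72 ± 4.67 to 1.13 ± 1.11 RPKM (adjusted p = 0.019), and its days overlapped. STC1, which encodes the glandular hormone stanniocalcin, was scattered at 15.7, 2.61, 10.0 and 12.2 RPKM on day 10 and 16.8, 72.8, 140.2 and 11.4 RPKM on day 20 and was not called (adjusted p = 0.0565). CST6, a cystatin that the LE also releases, stood at 1.72 ± 1.79 and 2.29 ± 1.67 RPKM (adjusted p = 0.922). SLPI, an antimicrobial protease inhibitor, lay below the filter for testing, at 0, 0, 0 and 0.12 RPKM on day 10 and 4.31, 6.16, 24.1 and 0.21 RPKM on day 20. The call of TTR was lost without day 10 replicate 02 or 08 or day 20 replicate 022 or 024 (adjusted p up to 0.0805).

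**Figure D1:**
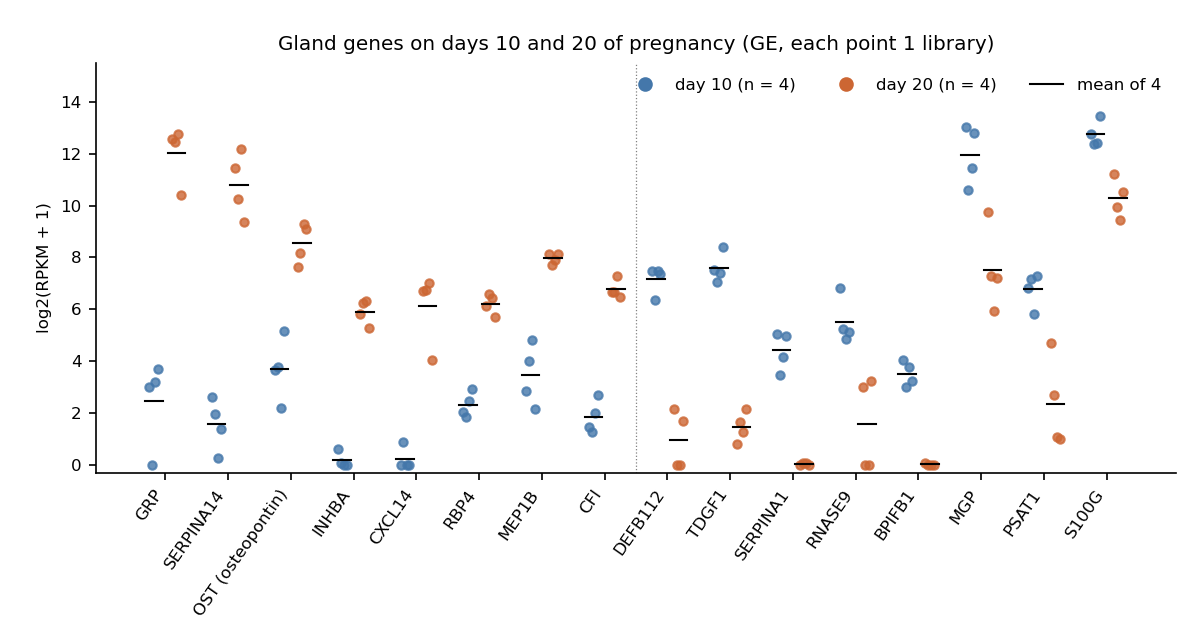
Expression of 8 genes that rose (left of the dotted line) and 8 that fell between days 10 and 20 in GE, on the log2(RPKM + 1) scale. Each point is 1 library and each bar the mean of 4 libraries of a day. The points of the days do not overlap for any of the 16 genes. The rule for naming the largest changes required this of most of them. Replicate 024 is the low day 20 point of GRP (1349 RPKM) and CXCL14 (15.3 RPKM).

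Other genes were high on day 10 and low on day 20. DEFB112, a beta-defensin, stood at 176, 81.8, 175 and 165 RPKM on day 10 and 3.42, 0, 0 and 2.25 RPKM on day 20 (log2 change -6.21, adjusted p = 4.58e-06). TDGF1, which encodes the Nodal co-receptor Cripto, stood at 179.6, 132, 168 and 341 RPKM on day 10 and 0.76, 2.11, 1.43 and 3.45 RPKM on day 20 (log2 change -6.12, adjusted p = 2.21e-06). Every day 10 library of both genes was far above every day 20 library. S100G, a calcium-binding protein of calcium-transporting epithelia, had the highest level of the named genes that fell, at 6953, 5365, 5463 and 11212 RPKM on day 10 and 2391, 991, 703 and 1451 RPKM on day 20. Its days did not overlap, with replicate 08 at the top of day 10 (log2 change -2.47, adjusted p = 0.0117), and without replicate 08 it missed the threshold (adjusted p = 0.0504).

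MGP, the matrix Gla protein that inhibits calcification, fell from 4935 ± 3298 to 303 ± 369.97 RPKM, a change of -4.43 ± 0.66 (SE) on the log2 scale with adjusted p = 1.34e-04, with 854 RPKM in day 20 replicate 018 and 59.6 to 153 RPKM in the other 3. PSAT1, an enzyme of serine synthesis, stood at 111, 144, 54.7 and 155 RPKM on day 10 and 24.7, 5.41, 1.12 and 0.97 RPKM on day 20, again highest on day 20 in replicate 018 (log2 change -4.41, adjusted p = 1.52e-04). ERP27, a protein disulfide isomerase relative of the endoplasmic reticulum, fell from 72.6 ± 29.8 to 4.34 ± 7.93 RPKM (adjusted p = 0.00215) and the calmodulin-binding PCP4 from 29.0 ± 22.7 RPKM to 0 in each day 20 library (adjusted p = 5.34e-04). BPIFB1, a secreted protein of mucosal defence, fell from 15.47, 7.02, 12.7 and 8.42 RPKM to 0.04 RPKM in replicate 018 and a listing of 0 in the other 3 (adjusted p = 6.34e-04). RNASE9, a member of the RNase A family, fell from 52.2 ± 39.2 to 3.85 ± 4.48 RPKM (adjusted p = 0.0234). MC4R, a receptor for melanocortins, fell from 66.9 ± 46.3 to 3.40 ± 2.81 RPKM (adjusted p = 1.11e-04), and ATP13A5, a cation-transporting ATPase, from 53.4 ± 52.2 to 2.19 ± 2.10 RPKM (adjusted p = 0.0242). RNASE9 missed the threshold without day 10 replicate 02 or day 20 replicates 020 or 022 (adjusted p up to 0.0915). ATP13A5 lost its call without day 10 replicates 02 or 06 or day 20 replicates 020 or 022 (adjusted p up to 0.104).

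Of the 15 largest named falls, which ranged from 3.67 to 6.21 on the log2 scale, the others were MRPS36 (-4.88), the tropomyosin TPM3 (-4.001), AKAP6, an anchor of protein kinase A (-3.91), the scaffold DLG2 (-3.85) and ARHGDIB (-3.78). MRPS36, a small mitochondrial protein, stood at 438, 619.6, 317 and 674 RPKM on day 10 and 25.4, 12.8, 10.2 and 18.2 RPKM on day 20 (adjusted p = 7.21e-07). Most of the fall lay early in the course: 14 of the 15 were at under 50% of their day 10 mean by day 12, and 11 were at under 20% of it by day 14, as a description without a test. The day 14 libraries differed in markers of other cell types, as given below with the days between. Near-identical copies can share reads with members of the RNase A, serpin, IFIT, MX and OAS families and with TPM3, and the rule by which such reads were counted is not given in the sources used here, so their levels are uncertain to that extent. Nor is a strand-specific library stated, so reads of overlapping genes cannot be told apart.

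Interferon-induced genes rose together. Of 45 tested genes on the interferon list 31 rose and 0 fell, against 2.63 and 3.80% of all genes, with a list median of 2.46. In 41 of the 45 every day 20 library was above every day 10 library, as in 7.88% of all genes, while 8.97% of all genes had every day 20 library lower. IFIT1, which binds viral RNA, stood at 0.46, 5.11, 2.61 and 0.67 RPKM on day 10 and 89.5, 126, 340.1 and 509 RPKM on day 20 (log2 change 6.29, adjusted p = 2.47e-06). IFI6, an interferon-induced mitochondrial protein, stood far higher, at 6.08, 88.2, 10.1 and 15.0 RPKM on day 10 and 1028, 1149, 1135 and 770.5 RPKM on day 20 (log2 change 5.79, adjusted p = 6.37e-06). OAS1, a sensor of double-stranded RNA, stood at 0.12, 0.12, 0.83 and 0.29 RPKM on day 10 and 34.5, 45.9, 141 and 119 RPKM on day 20 (log2 change 5.80, adjusted p = 1.15e-07). For all 3 genes the days were apart, with day 10 replicate 04 high for IFIT1 and IFI6.

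ISG17, the file's name for the ubiquitin-like ISG15, rose from 1.79 ± 2.97 to 71.3 ± 49.7 RPKM (adjusted p = 1.90e-04), and the antiviral GTPases MX1 and MX2 rose from 2.43 ± 3.49 to 76.5 ± 55.02 RPKM (adjusted p = 4.59e-05) and from 0.263 ± 0.191 to 46.4 ± 34.9 RPKM (adjusted p = 0.00126). IFIT3 rose from 0.247 ± 0.152 to 61.3 ± 49.5 RPKM (adjusted p = 2.21e-06), OAS2 from 2.21 ± 0.594 to 59.3 ± 30.4 RPKM (adjusted p = 2.21e-06), IFI44 from 0.335 ± 0.354 to 21.1 ± 9.60 RPKM (adjusted p = 7.93e-07) and the antiviral enzyme RSAD2 from 0.517 ± 0.396 to 40.9 ± 51.0 RPKM (adjusted p = 5.88e-04). The RNA sensor DDX58 rose from 4.43 ± 1.17 to 40.2 ± 28.8 RPKM (adjusted p = 0.0011), EIF2AK2, a kinase that halts translation, from 7.49 ± 2.91 to 72.9 ± 31.5 RPKM (adjusted p = 1.51e-05) and the chemokine IP-10, or CXCL10, from 0.438 ± 0.622 to 22.4 ± 14.1 RPKM (adjusted p = 1.33e-04). The RNA sensor IFIH1 and the factors IRF7 and IRF9 rose too, the factors with the smallest margin. IRF7 missed the threshold without each library in turn except day 10 replicate 04 and day 20 replicate 018 (adjusted p up to 0.129). IRF9 lost its call without day 10 replicates 04 or 06 or day 20 replicates 018 or 024 (adjusted p up to 0.0705).

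The day 20 libraries were unequal in these genes. In 29 of the 31 that rose, replicates 022 and 024 were both above 018 and 020, and 024 was the highest of day 20 in 26. RSAD2 shows this, with 5.64, 5.62, 38.8 and 114 RPKM. Day 10 replicate 04 was the highest of its day in 17 of the 31. All 31 had a higher mean on day 16 than on day 20, so day 20 was the highest of the 5 sampled days for 0 of them. The number that rose was 26 to 32 with 1 library left out and 26 to 39 over all settings tried.

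**Figure D2:**
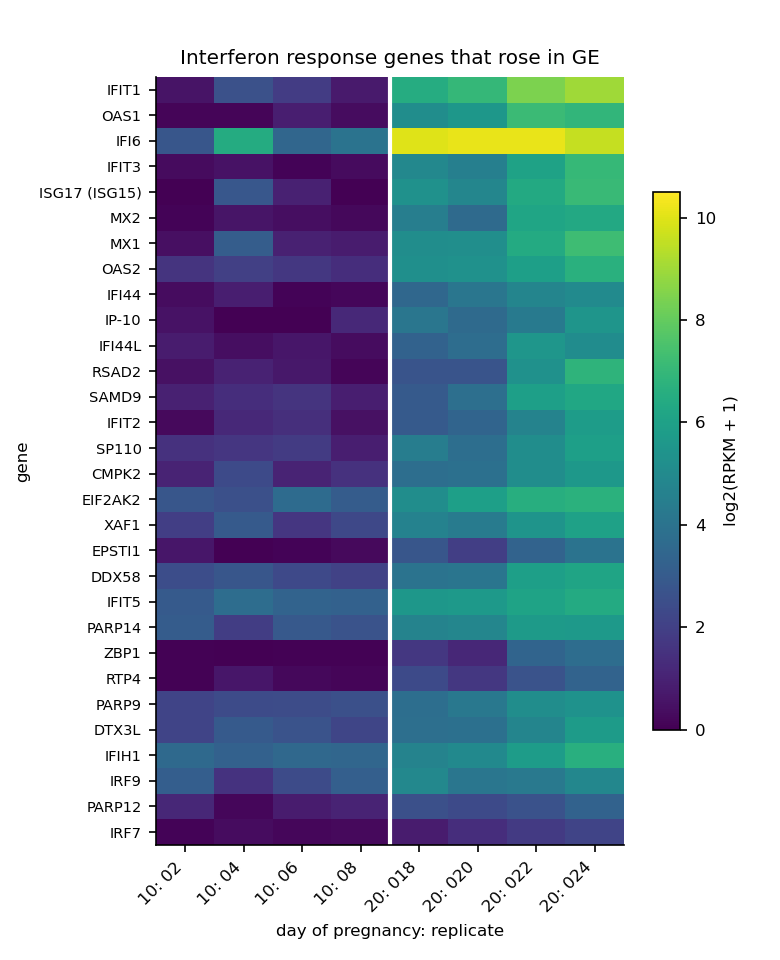
Interferon response genes that rose between days 10 and 20 (rows, 30 of the 31) in the 8 GE libraries (columns), coloured by log2(RPKM + 1). The 4 columns right of the white line are day 20, where replicates 022 and 024 are brighter than 018 and 020 in 28 of the 30 rows; day 10 replicate 04 is the brightest of its day in 16.

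Part of the genes of antigen presentation rose as well. Of 18 tested 4 rose and 1 fell (2.63 and 3.80% over all genes), with a median of 1.02. B2M, the light chain of MHC class I, stood at 546, 321, 364 and 449.5 RPKM on day 10 and 2202, 1718, 1950.2 and 2912 RPKM on day 20 (log2 change 2.38, adjusted p = 3.35e-05). The immunoproteasome subunits PSMB9 and PSMB8 rose from 3.66 ± 1.75 to 47.0 ± 28.4 RPKM (adjusted p = 2.41e-05) and from 2.96 ± 0.442 to 15.3 ± 5.99 RPKM (adjusted p = 0.00141). In all 3 genes every day 20 library was above every day 10 library, and 024 was highest. PSMB10, the third inducible subunit, rose from 5.75 ± 1.18 to 19.7 ± 7.31 RPKM (adjusted p = 0.031) and CALR, a folding chaperone also used in peptide loading, fell from 30.2 ± 8.76 to 10.3 ± 1.53 RPKM (adjusted p = 0.0346). PSMB10 missed the threshold without each library in turn except day 20 replicate 022 (adjusted p up to 0.1). CALR lost its call without each library in turn except day 10 replicate 04 (adjusted p up to 0.109).

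Several complement genes and inhibitors of complement rose. CFI, the protease that inactivates complement fragments, stood at 1.77, 1.39, 2.98 and 5.41 RPKM on day 10 and 100.4, 100.3, 155 and 88.8 RPKM on day 20 (log2 change 4.92, adjusted p = 5.34e-06). CD59, which blocks the membrane attack complex, stood at 11.8, 7.82, 9.62 and 14.0 RPKM on day 10 and 75.2, 76.1, 97.7 and 72.8 RPKM on day 20 (log2 change 2.80, adjusted p = 8.96e-05). SERPING1, the inhibitor of the first complement component, rose from 0.71 ± 0.809 to 9.82 ± 3.19 RPKM (adjusted p = 5.65e-05). For these 3 genes the days did not overlap. Of 16 tested genes of complement and mucosal defence 7 rose and 1 fell (2.63 and 3.80% over all genes), with a median of 1.46; the others that rose were C1R, C1S, C5 and CFB, and BPIFB1 fell. C5, whose product starts the membrane attack complex, was the most uneven, with 0.21, 0, 0.020 and 0.060 RPKM on day 10 and 0.50, 2.92, 52.5 and 31.8 RPKM on day 20. Macrophage and granulocyte markers summed to 13.1 to 20.2 RPKM on day 10 and to 22.8 to 64.2 RPKM on day 20, without overlap. Of these markers 5 were tested and 0 called by limma, with 3 at an unadjusted p under 0.05, while on recovered reads edgeR called 0 of them and DESeq2 1. With only the libraries of days 10 and 20 in the fit 2 of 4 tested rose. Their part in the complement result was not tested. The number that rose was 4 without day 20 replicate 022 and also 4 without 024. C1R missed the threshold without day 20 replicates 022 or 024 (adjusted p up to 0.0607). C1S lost its call without day 10 replicates 06 or 08 or day 20 replicate 024 (adjusted p up to 0.0664). C5 no longer passed without day 20 replicates 022 or 024 (adjusted p up to 0.055). CFB missed the threshold without day 20 replicate 022 (adjusted p up to 0.0667).

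Of 41 tested proteases and inhibitors of proteases 6 rose and 2 fell, against 2.63 and 3.80% of all genes, so the share that fell was near that of all genes, with a list median of 0.20. MEP1B, the metalloprotease meprin beta, stood at 6.23, 14.8, 26.9 and 3.41 RPKM on day 10 and 283, 210.3, 236 and 282 RPKM on day 20. Every day 20 library was several times above the highest of day 10, which was replicate 06 (log2 change 4.53, adjusted p = 1.51e-06). The others that rose were SERPINA14, cystatin C, the lysosomal protease CTSC, the coagulation inhibitor TFPI and MME, a membrane peptidase. PRSS23, a serine protease, fell from 9.95 ± 4.36 to 0.875 ± 0.591 RPKM (adjusted p = 0.0028), beside SERPINA1. The number that rose was 3 to 5 with 1 library left out. CTSC missed the threshold without each library in turn except day 20 replicate 024 (adjusted p up to 0.13). TFPI lost its call without each library in turn except day 10 replicate 04 and day 20 replicates 018 and 022 (adjusted p up to 0.0945). MME no longer passed without each library in turn except day 10 replicate 04 and day 20 replicates 020 and 024 (adjusted p up to 0.101).

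Receptors for oestrogen fell. Of 20 tested genes for steroid, prolactin and oxytocin receptors and their partners 1 rose and 6 fell (2.63 and 3.80% over all genes), with a median of -0.82. ESR1, the main oestrogen receptor, stood at 124, 29.4, 60.3 and 150.4 RPKM on day 10 and 21.2, 26.2, 13.5 and 14.2 RPKM on day 20 (log2 change -2.02, adjusted p = 0.0126), and ESR2, the other oestrogen receptor, fell from 20.0 ± 3.77 to 3.02 ± 0.368 RPKM (adjusted p = 0.00632). The days did not overlap for either. GREB1, an oestrogen-induced gene, fell from 3.35 ± 1.28 to 0.417 ± 0.208 RPKM (adjusted p = 0.00235), and IHH, a progesterone-induced ligand in mouse uterus, from 10.9 ± 7.40 to 1.28 ± 1.04 RPKM (adjusted p = 0.00444). FKBP5, a chaperone of steroid receptors, fell from 86.0 ± 32.0 to 37.3 ± 16.2 RPKM (adjusted p = 0.0276).

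PRLR, the prolactin receptor through which placental lactogen acts on sheep glands, was the gene of this list that rose. It stood at 25.7, 34.8, 27.7 and 41.6 RPKM on day 10 and 148, 119.9, 92.5 and 84.2 RPKM on day 20, with no overlap (log2 change 1.73, adjusted p = 0.0205). PGR, the progesterone receptor, stood at 25.9, 29.6, 15.8 and 24.9 RPKM on day 10 and 9.25, 8.84, 12.0 and 17.9 RPKM on day 20 and was not called, and its days overlapped (adjusted p = 0.374). OXTR, the oxytocin receptor, was at 0.35 RPKM or less in all 8 libraries and was not tested, and FOXA2, a regulator of gland formation, was at 1.26 RPKM or less in all 8 with no call (adjusted p = 0.998). ESR1 missed the threshold without day 10 replicates 02 or 08 (adjusted p up to 0.0645). PRLR lost its call without day 10 replicates 02 or 06 or day 20 replicates 018 or 020 (adjusted p up to 0.0668). FKBP5 no longer passed without each library in turn except day 10 replicates 02 and 04 and day 20 replicate 018 (adjusted p up to 0.118).

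Of 8 tested genes for the making of and response to glucocorticoids 1 rose and 1 fell, with a median of -0.32. SGK1, a kinase induced by glucocorticoids, rose from 9.73 ± 2.52 to 44.5 ± 5.61 RPKM (adjusted p = 0.00331), while FKBP5, which they also induce, fell. HSD11B1, which regenerates cortisol, was at 0.11 RPKM or less in all 8 libraries and was not tested.

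Genes for the folding and export of secreted proteins had log2 changes mostly below 0. Of 60 tested genes for entry into the endoplasmic reticulum (ER) and folding 1 rose and 5 fell (2.63 and 3.80% over all genes), with a median of -0.42, and 15 of the 60 had a log2 change above 0. SEC11C, a catalytic subunit of the signal peptidase, was the one that rose, at 20.0, 10.6, 20.47 and 24.8 RPKM on day 10 and 196, 229, 253 and 82.2 RPKM on day 20 (log2 change 3.20, adjusted p = 0.00458). Its day 20 libraries were all above day 10, with replicate 024 lowest. P4HB, protein disulfide isomerase, stood at 145, 48.4, 99.4 and 203 RPKM on day 10 and 35.3, 22.8, 25.8 and 15.2 RPKM on day 20 (log2 change -2.15, adjusted p = 0.0143). PDIA6, of the same family, fell from 71.5 ± 11.2 to 30.5 ± 5.12 RPKM (adjusted p = 0.0141) and SEC61A1, the pore of the ER translocon, from 20.6 ± 9.49 to 7.12 ± 1.51 RPKM (adjusted p = 0.017). PDIA4, also of that family, fell from 15.48 ± 9.74 to 2.94 ± 1.86 RPKM (adjusted p = 0.0446), and CALR was the other that fell. The chaperone HSPA5 stood at 73.6 ± 24.5 and 33.2 ± 8.49 RPKM (adjusted p = 0.111). Between 0 and 5 of the list fell with 1 library left out. P4HB missed the threshold without day 10 replicates 02 or 08 or day 20 replicate 024 (adjusted p up to 0.0668). PDIA6 lost its call without day 10 replicate 08 or day 20 replicate 024 (adjusted p up to 0.0603). SEC61A1 no longer passed without day 10 replicates 02 or 08 or day 20 replicates 022 or 024 (adjusted p up to 0.0873). PDIA4 missed the threshold whichever library was left out (adjusted p up to 0.171).

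Of 36 tested genes for transport between the ER and Golgi 0 rose and 4 fell, with a median of -0.52. TMED3, a cargo receptor, stood at 22.6, 49.2, 15.46 and 32.3 RPKM on day 10 and 2.68, 2.79, 2.54 and 0.83 RPKM on day 20 (log2 change -3.20, adjusted p = 1.80e-04). SEC24D, of the COPII coat, fell from 14.9 ± 3.19 to 3.48 ± 0.821 RPKM (adjusted p = 0.00589). TMED2 and KDELR2, a cargo receptor and the receptor that returns ER proteins, fell from 83.5 ± 10.3 to 36.1 ± 9.45 RPKM (adjusted p = 0.0493) and from 40.1 ± 8.46 to 19.9 ± 4.44 RPKM (adjusted p = 0.0417). Of 30 tested genes of glycosylation 0 rose and 2 fell, with a median of -0.34. FUT2, which adds fucose to surface sugars, fell from 9.49 ± 6.54 to 0.595 ± 0.839 RPKM (adjusted p = 0.00576) with overlapping days, and FUT10 fell from 12.0 ± 2.09 to 3.18 ± 1.40 RPKM (adjusted p = 0.037). TMED2 was lost whichever library was left out (adjusted p up to 0.145). KDELR2 missed the threshold without each library in turn except day 10 replicate 06 (adjusted p up to 0.16). FUT10 lost its call without each library in turn except day 20 replicate 018 (adjusted p up to 0.132).

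Of 13 tested carriers of amino acids 2 rose and 1 fell, with a median of 0.13. SLC36A2, a carrier of glycine and proline, stood at 6.72, 7.88, 11.3 and 5.02 RPKM on day 10 and 57.5, 62.9, 57.5 and 40.8 RPKM on day 20 (log2 change 2.70, adjusted p = 8.26e-05). SLC38A2, a carrier of neutral amino acids, rose from 14.3 ± 3.38 to 57.9 ± 21.9 RPKM (adjusted p = 0.00107), and SLC38A1, of the same family, fell from 112 ± 41.3 to 26.7 ± 10.3 RPKM (adjusted p = 0.0197). SLC7A2, a carrier of arginine, was at 1.17 RPKM or less in all 8 libraries and was not tested. Of 8 tested carriers of sugars and organic acids 2 rose and 1 fell, with a median of 0.63. SLC5A11, which carries inositol, stood at 0.36, 0.80, 0.19 and 0.43 RPKM on day 10 and 7.53, 11.0, 7.27 and 5.83 RPKM on day 20 (log2 change 2.61, adjusted p = 5.50e-04), and the glucose carrier SLC5A1 rose from 2.79 ± 2.13 to 17.9 ± 6.86 RPKM (adjusted p = 0.0415). SLC13A5, which takes up citrate, fell from 8.25 ± 6.05 to 0.347 ± 0.274 RPKM (adjusted p = 0.00211). The glucose carrier SLC2A1 stood at 5.04 ± 1.79 and 2.37 ± 1.85 RPKM (adjusted p = 0.484) and was not called. SLC38A1 missed the threshold without day 10 replicate 02 or day 20 replicates 020 or 022 (adjusted p up to 0.0778). SLC5A1 lost its call without each library in turn except day 10 replicate 06 and day 20 replicate 022 (adjusted p up to 0.133).

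Genes of ion, water and mineral handling had a median of -0.80, and 4 of 25 tested fell and 0 rose. Those that fell included S100G, SLC34A2, a phosphate carrier, and ATP6V0A4, a proton pump subunit. SLC34A2 stood at 70.6, 86.3, 85.04 and 132 RPKM on day 10 and 23.6, 11.8, 2.14 and 14.1 RPKM on day 20 (log2 change -3.05, adjusted p = 0.0013). ATP6V0A4 fell from 2.63 ± 3.02 to 0.0925 ± 0.127 RPKM (adjusted p = 0.0212). The days overlapped for neither SLC34A2 nor ATP6V0A4. ATP6V0A4 missed the threshold without day 10 replicate 04 or day 20 replicates 018, 020 or 024 (adjusted p up to 0.0611).

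Several enzymes that make or take up fatty acids fell. Of 25 tested genes for fatty acids 0 rose and 5 fell, with a median of -0.28. SCD, the stearoyl-CoA desaturase, stood at 15.0, 11.6, 19.7 and 20.3 RPKM on day 10 and 2.69, 1.43, 0.92 and 1.12 RPKM on day 20, without overlap (log2 change -2.81, adjusted p = 1.68e-04). ELOVL7, which lengthens fatty acids, fell from 4.98 ± 2.46 to 0.395 ± 0.51 RPKM (adjusted p = 6.32e-05), LPL, which frees fatty acids from lipoproteins, from 3.00 ± 0.914 to 0.328 ± 0.655 RPKM (adjusted p = 9.09e-04), ACSL1, which activates them, from 17.7 ± 5.84 to 5.42 ± 2.63 RPKM (adjusted p = 0.0209), and FASN, fatty acid synthase, from 5.78 ± 4.10 to 0.79 ± 0.287 RPKM (adjusted p = 0.0386). Of 24 tested genes for cholesterol 1 rose and 2 fell, with a median of -0.03. SREBF1, a transcription factor for lipid synthesis, fell from 2.42 ± 1.88 to 0.195 ± 0.197 RPKM (adjusted p = 0.0146) and the sterol reductase TM7SF2 from 27.5 ± 21.3 to 5.23 ± 1.03 RPKM (adjusted p = 0.0483), while INSIG2, which restrains sterol synthesis, rose from 18.3 ± 11.7 to 56.2 ± 8.88 RPKM (adjusted p = 0.0418). LPL did not pass with edgeR or DESeq2 on recovered reads, and its day 20 replicate 024 lay apart at 1.31 RPKM. ACSL1 missed the threshold without day 10 replicates 02 or 06 or day 20 replicates 022 or 024 (adjusted p up to 0.0905). FASN lost its call without each library in turn except day 10 replicate 04 (adjusted p up to 0.154). SREBF1 no longer passed without day 10 replicate 08 (adjusted p up to 0.067). TM7SF2 missed the threshold without each library in turn except day 10 replicate 06 (adjusted p up to 0.164). INSIG2 lost its call without each library in turn except day 10 replicate 02 (adjusted p up to 0.136).

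Of 11 tested genes for prostaglandins 1 rose and 1 fell, with a median of 0.12. PTGS2, the inducible cyclooxygenase, rose from 0.163 ± 0.0737 to 2.88 ± 0.788 RPKM (adjusted p = 0.031) and stood at 157 ± 83.7 RPKM in the LE of day 20. PPARA, a nuclear receptor for lipids, fell from 2.38 ± 0.987 to 0.425 ± 0.246 RPKM (adjusted p = 0.0197). Of 10 tested retinoid genes 1 rose, RBP4, and 2 fell, TTR and ALDH1A1, with a median of -0.41. ALDH1A1, which makes retinoic acid, stood at 695, 59.8, 596 and 542 RPKM on day 10 and 165, 86.6, 46.1 and 82.5 RPKM on day 20, where day 10 replicate 04 was as low as day 20 (adjusted p = 0.0432). PTGS2 missed the threshold without each library in turn except day 20 replicate 020 (adjusted p up to 0.0829). PPARA lost its call without day 10 replicates 02 or 06 or day 20 replicates 020 or 022 (adjusted p up to 0.0702). ALDH1A1 no longer passed without each library in turn except day 10 replicate 04 and day 20 replicate 018 (adjusted p up to 0.157).

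In amino acid and polyamine metabolism PSAT1 fell and CTH, which makes cysteine from cystathionine, rose, with 1.19, 0.82, 0.42 and 0.44 RPKM on day 10 and 29.1, 14.1, 25.5 and 40.5 RPKM on day 20 (log2 change 3.98, adjusted p = 0.0011). ODC1, the first enzyme of polyamine synthesis, fell from 22.4 ± 12.5 to 7.96 ± 2.82 RPKM (adjusted p = 0.0461). These were the calls among 19 tested, with a median of -0.54. Of 41 tested nuclear genes of oxidative phosphorylation 1 rose, COX5B, and 1 fell, COX7A2, with a median of -0.18; both encode subunits of cytochrome c oxidase, at 37.5 ± 12.9 and 106 ± 45.5 RPKM (adjusted p = 0.0386) and at 16.0 ± 8.87 and 4.97 ± 1.76 RPKM (adjusted p = 0.0477). ODC1 missed the threshold without each library in turn except day 10 replicates 04 and 06 and day 20 replicate 024 (adjusted p up to 0.189). COX5B lost its call without each library in turn except day 10 replicate 08 and day 20 replicate 022 (adjusted p up to 0.131). COX7A2 no longer passed whichever library was left out (adjusted p up to 0.155).

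Among regulators, 3 of 23 tested gland transcription factors rose and 0 fell, with a median of 0.36. HIF1A, which responds to low oxygen, stood at 44.2, 82.2, 57.2 and 51.5 RPKM on day 10 and 147, 136, 218 and 265 RPKM on day 20 (log2 change 1.67, adjusted p = 0.00537). Its relative EPAS1 rose from 25.8 ± 9.85 to 81.2 ± 25.1 RPKM (adjusted p = 0.00933), and the epithelial factor EHF from 4.02 ± 4.32 to 17.7 ± 5.26 RPKM (adjusted p = 0.0461). Of 12 tested immediate early genes ATF3, a stress-induced factor, was the 1 that rose, from 0.325 ± 0.364 to 9.07 ± 4.01 RPKM (adjusted p = 8.47e-04), and 0 fell, with a median of 0.44. In Wnt, activin and growth factor signalling 2 of 26 tested rose, DKK1 and INHBA, and 0 fell, with a median of 0.10. Genes of DNA replication and mitosis, 14 of them tested, had 0 calls in limma and in edgeR on recovered reads and 1 in DESeq2, while 1 had an unadjusted p under 0.05 in limma, with a median of 0.17. Of 23 tested genes of motile cilia 1 rose, DYNLRB2, a dynein light chain, from 3.26 ± 3.59 to 22.9 ± 5.14 RPKM (adjusted p = 0.0252), and 0 fell, with a median of 0.64. EHF missed the threshold without each library in turn except day 10 replicate 06 (adjusted p up to 0.181). DYNLRB2 lost its call without each library in turn except day 10 replicates 04 and 08 and day 20 replicate 024 (adjusted p up to 0.107).

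Of 25 tested genes of matrix and adhesion 2 rose and 3 fell, with a median of -0.44. ITGB8, an integrin subunit, rose from 3.63 ± 3.45 to 21.5 ± 2.73 RPKM (adjusted p = 0.00233) without overlap, and osteopontin was the other that rose. The laminin LAMB2 fell from 1.47 ± 0.878 to 0.107 ± 0.10 RPKM (adjusted p = 0.0276) and the integrin subunits ITGA2 and ITGA6 from 5.49 ± 0.686 to 1.49 ± 1.28 RPKM (adjusted p = 0.0165) and from 48.1 ± 15.1 to 21.8 ± 4.08 RPKM (adjusted p = 0.0313). Of 24 tested junction genes 0 rose and 3 fell, with a median of -0.56. CDH2, or N-cadherin, fell from 5.04 ± 2.77 to 0.53 ± 0.582 RPKM (adjusted p = 0.00243), the gap junction protein GJB5 from 6.16 ± 3.38 to 0.25 ± 0.332 RPKM (adjusted p = 3.57e-04) and JUP, the plakoglobin of desmosomes, from 13.7 ± 6.44 to 3.33 ± 1.29 RPKM (adjusted p = 0.0346). LAMB2 missed the threshold without day 20 replicates 020, 022 or 024 (adjusted p up to 0.0769). ITGA2 lost its call without day 10 replicate 08 or day 20 replicates 018 or 022 (adjusted p up to 0.0686). ITGA6 no longer passed without each library in turn except day 10 replicates 04 and 06 and day 20 replicate 018 (adjusted p up to 0.119). JUP missed the threshold without each library in turn except day 10 replicate 04 and day 20 replicate 018 (adjusted p up to 0.138).

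**Figure D3:**
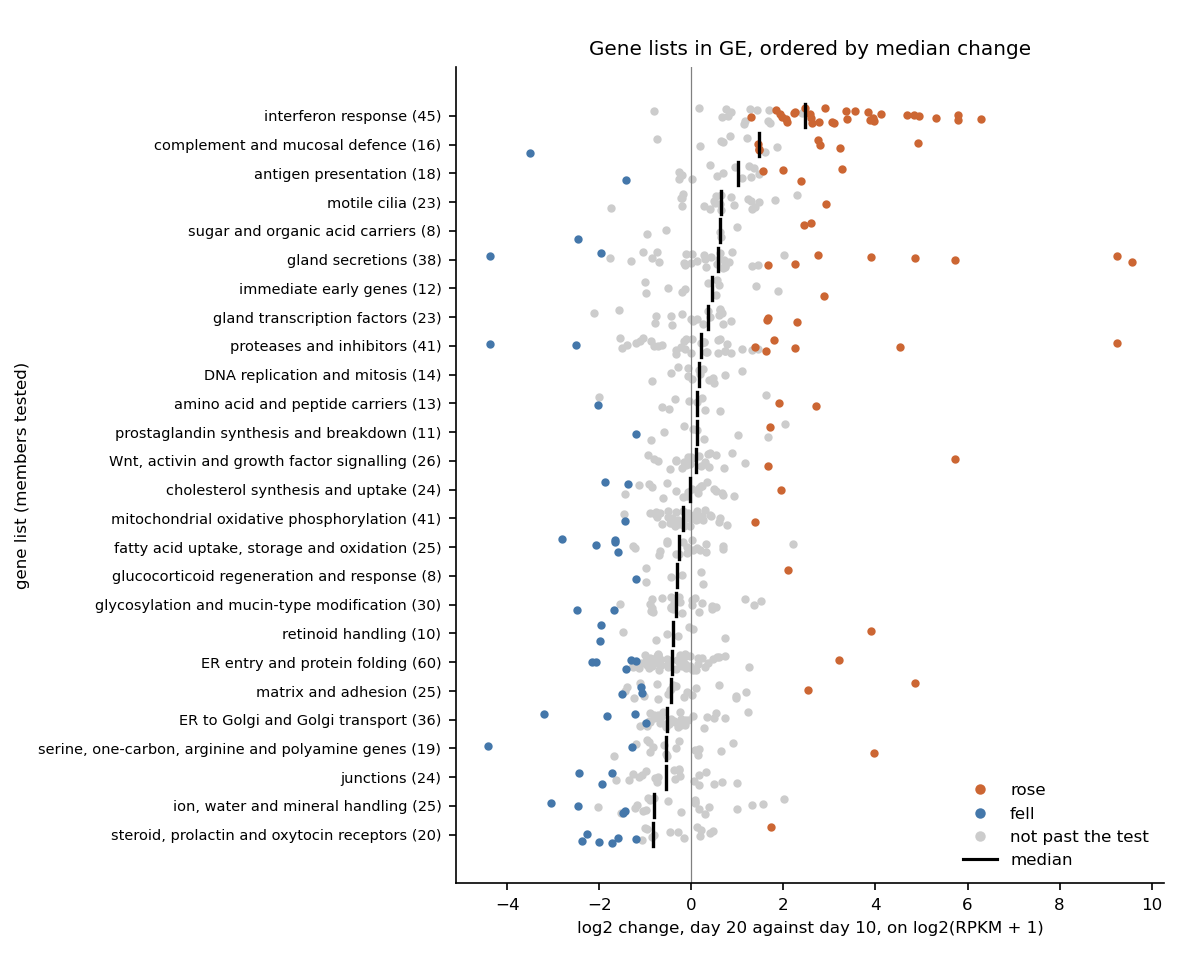
Log2 change from day 10 to day 20 in GE, on the log2(RPKM + 1) scale, for the tested members of 26 gene lists, ordered by list median (black bar). Each point is 1 gene, orange where it rose, blue where it fell and grey where it did not pass limma's test; the interferon list lies farthest right, with 31 of 45 members in orange, and the receptor list lies lowest, with a median of -0.82.

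The days between show that the net change hides unlike paths; these levels are a description, with no test. Mean RPKM on days 10, 12, 14, 16 and 20 was 6.81, 67.7, 487, 74.6 and 4989 RPKM for GRP. For SERPINA14 the means were 2.46, 24.8, 14.0, 40.96 and 2326 RPKM, and for osteopontin 15.54, 8.66, 0.468, 5.72 and 413 RPKM. All 3 were at under 10% of their day 20 mean through day 16, and osteopontin had its lowest mean on day 14. On day 14 GRP was uneven, at 112, 1030, 744 and 59.9 RPKM in the 4 libraries. IFIT1 went through 2.21, 11.0, 201, 609 and 266 RPKM, and RSAD2 through 0.517, 1.55, 132, 198 and 40.9 RPKM. Both were highest on day 16. S100G was at 7248, 755, 318, 2309 and 1384 RPKM, lowest on day 14, and DEFB112 at 149, 25.8, 2.24, 7.43 and 1.42 RPKM. Of the 15 largest rises 7 had their highest mean on day 20. The day 14 libraries are numbered in another way (B01, B03, B05 and B07) and differed in markers of other cell types. Their endothelial sums were 32.2 to 128 RPKM, against 5.85 to 28.1 RPKM over the other days. Smooth muscle sums were 5.05 to 99.4 RPKM, against at most 5.55, and stromal sums 183 to 461 RPKM, against at most 220.5. The part of this in the day 14 levels was not tested.

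**Figure D4:**
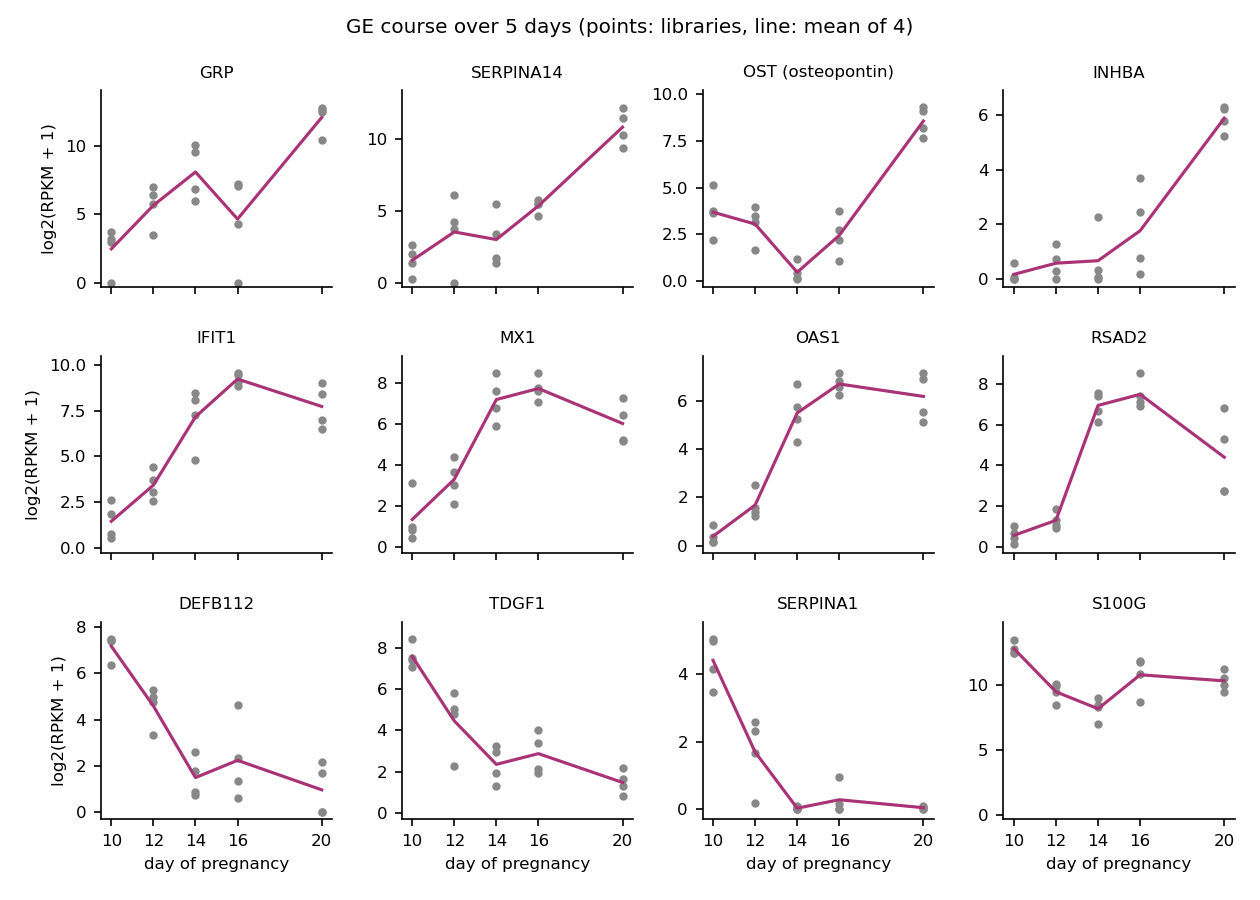
Expression of 12 genes in GE on days 10, 12, 14, 16 and 20, on the log2(RPKM + 1) scale; points are libraries and lines join the means of 4. The top row (gland products) ends at its highest, the middle row (interferon-induced genes) is highest on day 16, and the bottom row starts at its highest on day 10.

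Whether a change was particular to the glands was tested as the difference between the change in GE and the change in LE over the same days, in 1 limma fit over the 40 libraries of both tissues. Of 11131 genes 96 differed in the direction of GE (0.862%) and 326 in the direction of LE (2.93%), 422 or 3.79% in all. The median difference over all genes was -0.31 as deposited, and -0.02, 0.03 and 0.06 with TMM, RLE and upper quartile scaling; the share of calls in the direction of GE was 22.7%, and 40.4, 43.9 and 46.6% with those scalings. The difference is GE minus LE on the log2 scale.

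MEP1B had the largest named difference towards GE, 7.35 ± 1.04 (SE, adjusted p = 2.13e-05): in the LE it stood at 32.1, 55.3, 57.1 and 7.44 RPKM on day 10 and 2.37, 46.1, 0.23 and 0.87 RPKM on day 20, in the order of replicates 01, 03, 05 and 07 and of 17, 19, 21 and 23. CFI, which was at 0 to 3.98 RPKM in the 8 LE libraries, differed by 5.61 ± 0.83 (SE, adjusted p = 4.59e-05). INHBA was at 2.71 RPKM or less in the LE and differed by 5.52 ± 0.71 (SE, adjusted p = 4.46e-06). IFI6 and IFIT1 differed by 5.53 ± 1.06 (SE, adjusted p = 0.00153) and 5.29 ± 1.07 (SE, adjusted p = 0.00247). The LE held 359 ± 117 RPKM of IFI6 on day 10 and 731 ± 703 on day 20. Its LE libraries stood at 221, 507, 343 and 366 RPKM on day 10 and 123, 1438, 131 and 1233 RPKM on day 20. For IFIT1 they stood at 9.18, 28.9, 16.9 and 7.70 RPKM and at 6.93, 90.2, 12.4 and 76.0 RPKM. In both genes LE replicates 19 and 23 were above every LE library of day 10, and 17 and 21 were not. Of the 45 interferon genes 9 differed towards GE and 0 towards LE, and 9 or 10 and 0 with the other scalings. Osteopontin was at 12.5 RPKM or less in the LE and differed by 4.10 ± 1.00 (SE, adjusted p = 0.0125); with a pseudocount of 0.1 and with edgeR and DESeq2 on recovered reads it missed the threshold.

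The gland products GRP and SERPINA14 were also found in some LE libraries. GRP stood in the LE of day 20 at 2.89, 0.63, 225 and 719 RPKM and SERPINA14 at 0.94, 0, 39.6 and 379 RPKM, so that replicates 21 and 23 held both and 17 and 19 almost none. The difference of GRP was 4.66 ± 1.97 (SE, adjusted p = 0.202) and did not pass, and it was -1.08 in edgeR and -1.26 in DESeq2 on recovered reads, where it did not pass either. That of SERPINA14 was 5.55 ± 1.65 (SE, adjusted p = 0.0475), but it was -1.90 in edgeR and -2.37 in DESeq2 on recovered reads, where it did not pass, and it missed the threshold in 13 of 16 fits with 1 library left out (adjusted p up to 0.122), those without LE day 20 replicate 21 or 23 or GE day 20 replicate 024 excepted.

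Towards LE the largest named differences were mostly in genes that stood high in 3 of the 4 LE libraries of day 20. SERINC2, which incorporates serine into membrane lipids, differed by -6.65 ± 1.06 (SE, adjusted p = 1.12e-04) and stood in the LE of day 20 at 66.2, 2.13, 30.3 and 86.5 RPKM. CA2, the carbonic anhydrase, differed by -5.72 ± 1.06 (SE, adjusted p = 9.74e-04), with 499, 15.3, 777 and 572 RPKM in the LE of day 20 against 211, 132, 76.4 and 127 RPKM in the glands. RASGEF1A, an activator of Ras, differed by -5.93 ± 0.99 (SE, adjusted p = 2.23e-04), with 19.1, 0.10, 22.8 and 24.1 RPKM in the LE of day 20. In all 3, LE replicate 19 was the lowest of day 20. For RASGEF1A it lay within the range of the LE of day 10, while for SERINC2 and CA2 it lay above every LE library of day 10. TDGF1 differed by -6.25 ± 0.89 (SE, adjusted p = 2.65e-05), with 6.77, 0.16, 0.63 and 7.60 RPKM in the LE of day 10 and 0.37, 2.55, 8.49 and 2.89 RPKM on day 20. F3, the tissue factor of clotting, differed by -4.84 ± 0.87 (SE, adjusted p = 6.72e-04) and CMTM7, a membrane protein, by -4.78 ± 1.20 (SE, adjusted p = 0.0151). LGALS15 differed by -6.83 ± 1.66 (SE, adjusted p = 0.0122), but it missed the threshold with a pseudocount of 0.1, and it was -0.55 in edgeR and -0.86 in DESeq2 on recovered reads, where it did not pass.

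Among the folding genes that fell in the glands, PDIA6, P4HB and CALR had higher means in the LE of day 20 than of day 10. PDIA6 went from 14.3 ± 2.78 to 61.5 ± 27.5 RPKM in the LE and differed by -3.14 ± 0.54 (SE, adjusted p = 3.73e-04), P4HB differed by -3.97 ± 1.03 (SE, adjusted p = 0.0187) and CALR by -3.31 ± 0.72 (SE, adjusted p = 0.00494). Of 60 tested ER genes 10 differed towards LE and 0 towards GE, and 8, 6 and 2 towards LE with TMM, RLE and upper quartile scaling. The call of P4HB was lost with upper quartile scaling and without LE day 20 replicate 21 or 23 or GE day 10 replicate 08 (adjusted p up to 0.060). Among genes whose days did not overlap in GE, of the 6 largest differences each way 12, 12 and 11 passed with TMM, RLE and upper quartile scaling, CMTM7 being the 1 lost. The number of calls, 422, was 740 without LE day 20 replicate 19, 277 without 21 and 260 without 23.

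**Figure D5:**
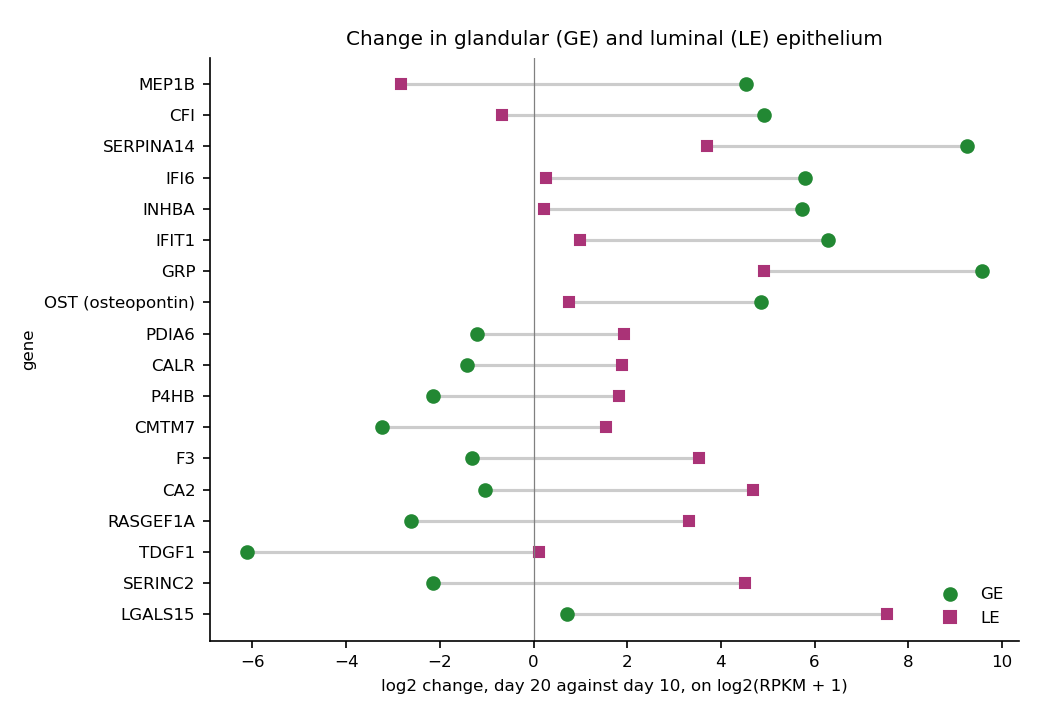
Log2 change from day 10 to day 20, on the log2(RPKM + 1) scale, in GE (green circles) and LE (magenta squares) for 18 genes, joined by a line whose length is the difference between the tissues. The upper genes rose in GE and moved less or fell in LE; the lower ones stand further right in LE, down to LGALS15 with a log2 change of 0.71 in GE and 7.54 in LE.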

How the data were processed

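Laser-captured GE was compared between 4 libraries of day 10 and 4 of day 20, with the GE of days 12, 14 and 16 in the same fit. The deposited GE and LE values are RPKM per gene and library, per the file headers, and the authors' build was Oar v3.1, per the submitters' processing notes. No aligner and no counting rule is named there, so both remain not given in the sources used here. Low RPKM values were whole multiples of the value of 1 read in all of the libraries used (100% of values worth up to 20 reads, within 0.1 read), with exon lengths taken from the conceptus table, where the authors deposited both gene read counts and RPKM. Counts recovered in this way served edgeR 4.0.16 and DESeq2 1.42.0 as alternatives. Counts had been foreseen as a possible unit when the tests were planned. Of 25197 features 23 without an identifier were left out.

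Genes with an RPKM of at least 1 in 4 libraries were tested with limma 3.58.1 in R 4.3.3 on log2(RPKM + 1), with a mean-variance trend and Benjamini-Hochberg adjustment over all genes at 0.05; log2 changes are on that scale, which understates changes of low genes. The difference between GE and LE used 1 fit over 40 libraries. On simulated GE counts with seeded changes of known size, the method recovered most of the larger changes at the lower spread simulated. Smaller changes and a higher spread were simulated too, and their recovery is not reported here. All genes of a simulated set had the same spread, so this checks the code and is no support for the calls. The difference between GE and LE and libraries of uneven composition were not simulated. Named genes were the 15 largest rises and falls with a symbol, a call, a mean of at least 10 RPKM in the higher day and no overlap, up to 4 members of each of 26 gene lists by adjusted p or all members of a list with 5 or fewer calls, a set of known gland genes, and the 6 largest differences each way at that level, with a symbol and no overlap of the days in GE. A few other called members, named with their lists, and the genes of the closing observations were chosen after their values were seen. Members and lists were chosen with earlier results of these data known. Alternatives were a pseudocount of 0.1, other filters, TMM, RLE and upper quartile scaling, scaling without mitochondrial reads, fits of only both days, edgeR, DESeq2 and each library left out. No genome or sequence table was used here, so promoter motifs were not searched. A few genes that count among the members called are not reported here by name.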

Additional observations from a re-analysis of the deposited data

Results flagged for a closer look

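In each gene named with values, the 4 libraries of a day were searched for 1 library lying apart from the other 3. Of 260 such groups of 4, from 130 genes in both days, 28 had one, and groups with 4 equal values could not have one. The cut-off gives about 1 in 20 by chance for independent, normally distributed values. RPKM values of genes from the same libraries need not be such, so no excess over chance is read from the count. For day 10 replicate 04 these were CXCL14 (0.82 RPKM), DEFB112 (81.77 RPKM), IFI6 (88.22 RPKM), ISG17 (6.19 RPKM), MX1 (7.65 RPKM), ATP6V0A4 (7.13 RPKM), COX7A2 (29.15 RPKM) and MME (22.79 RPKM). For day 10 replicate 02 these were INHBA (0.51 RPKM), RNASE9 (110.8 RPKM), SLC38A1 (173.6 RPKM) and ATF3 (0.87 RPKM). For day 10 replicate 08 these were SLPI (0.12 RPKM), PDIA6 (88.18 RPKM), JUP (23.35 RPKM) and CA2 (411.7 RPKM). For day 20 replicate 018 these were ERP27 (16.22 RPKM), MGP (854.4 RPKM), BPIFB1 (0.04 RPKM), SEC24D (2.25 RPKM) and SREBF1 (0.49 RPKM). For day 20 replicate 024 these were TMED3 (0.83 RPKM), KDELR2 (13.32 RPKM), LPL (1.31 RPKM) and ATF3 (15.07 RPKM). For day 20 replicate 022 these were CD59 (97.68 RPKM) and CFB (5.24 RPKM). For day 20 replicate 020 this was OXTR (0.05 RPKM). At these levels some gaps are of a few reads, as for SLPI, OXTR and BPIFB1, where the other libraries were at or near 0. Day 10 replicate 04 also had the largest mitochondrial share of exon reads, 17.4%, and the part of that share in its values was not tested.

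The difference between the change from day 10 to day 20 in GE and that in LE was described for 18 genes, and by limma's test of the difference it had an adjusted p under 0.05 in 17 of them. On the log2 scale, as GE minus LE, the difference was 7.35 for MEP1B, 5.61 for CFI, 5.55 for SERPINA14, 5.53 for IFI6, 5.52 for INHBA, 5.29 for IFIT1 and 4.10 for OST. It was -6.83 for LGALS15, -6.65 for SERINC2, -6.25 for TDGF1, -5.93 for RASGEF1A, -5.72 for CA2, -4.84 for F3, -4.78 for CMTM7, -3.97 for P4HB, -3.31 for CALR and -3.14 for PDIA6. Of all 129 genes named with values and tested for a difference, 56 passed, 16 in the direction of GE and 40 in that of LE, against 3.79% of all genes. Most of them were chosen by their change in the glands, which enters the difference, so nothing is read from that share.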

How the results depend on the processing

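Of 115 named genes called between the days, 66 kept direction and call in all 18 settings, 49 lost the call in some and 18 of these only with 1 library left out. The genes higher on day 20, 264, were 433 with only the libraries of days 10 and 20 and 554 with DESeq2 on recovered reads, and 173 to 220 with 1 library left out, fewest without day 20 replicate 024. The genes lower on day 20, 382, were 597 with DESeq2 and 226 to 402 with 1 left out (226 without day 10 replicate 08, 248 without 02 and 235 without day 20 replicate 022). The 422 differences between GE and LE were 244 with a pseudocount of 0.1, 768 with only both days and 184 with edgeR, and 260 to 740 with 1 left out (740, 277 and 260 without LE day 20 replicates 19, 21 and 23). The difference of SERPINA14 reversed to -1.90 with edgeR and -2.37 with DESeq2, and the cause was not tested. Of the 17 differences described and called 12 kept their call in all 27 settings. Named calls lost with edgeR were those of TTR, RNASE9, ERP27, IHH, TMED2, KDELR2, FUT10, SLC5A1, PPARA, LPL, INSIG2, ODC1, EHF, DYNLRB2, COX7A2, ITGA2, RASGEF1A, PDIA4, CTSC and TFPI. Those of TTR, RNASE9, KDELR2, LPL, EHF, ITGA2 and TFPI were also lost with DESeq2. No paired analysis was possible because the libraries of days 10 and 20 share no replicate number. For the difference between tissues, a replicate block that takes neighbouring numbers of GE and LE as 1 animal, which the labels do not state, gave 457 calls. With 4 libraries a day and 2.21 to 5.62 M exon reads each, genes that reached an RPKM of 1 in fewer than 4 of the libraries fitted were not tested in the main fits.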

Other observations

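The genes in these paragraphs were chosen after their values were seen, with tests by limma over all genes. Among the rises were further secreted proteins. SCGB2A1, a secretoglobin, was listed at 0 in all 4 day 10 libraries and stood at 138, 1.21, 11.8 and 0.71 RPKM on day 20 (adjusted p = 0.0199). TFF1, a trefoil peptide of mucous epithelia, was also at 0 on day 10 and stood at 22.0, 4.06, 15.0 and 9.52 RPKM on day 20 (adjusted p = 9.84e-04). The days did not overlap in either gene. C4BPA, a soluble inhibitor of complement, rose from 0.542 ± 0.825 to 14.1 ± 3.68 RPKM (adjusted p = 2.72e-04) and a serum amyloid A gene, ENSOARG00000009963, from 1.66 ± 1.12 to 56.2 ± 36.2 RPKM (adjusted p = 3.59e-05). FOXO1, a transcription factor of the progesterone response in human endometrium, stood at 7.72, 21.3, 14.2 and 13.2 RPKM on day 10 and 54.6, 36.4, 24.7 and 46.2 RPKM on day 20 and rose with adjusted p = 0.0411. VDUP1, the file's symbol for the thioredoxin-interacting protein, rose from 111 ± 29.2 to 424 ± 109 RPKM (adjusted p = 1.70e-04), and TNFSF10, an interferon-induced ligand that triggers apoptosis, from 1.46 ± 0.889 to 15.2 ± 14.8 RPKM (adjusted p = 0.0209).

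Among the falls were LGR5, a receptor for R-spondins listed as ENSOARG00000014558, from 164 ± 58.4 to 17.4 ± 7.37 RPKM (adjusted p = 2.45e-06), and LRP2, the endocytic receptor megalin, from 92.5 ± 11.9 to 16.7 ± 5.99 RPKM (adjusted p = 2.62e-06). The antibacterial enzyme lysozyme, ENSOARG00000020393, fell from 26.3 ± 18.8 to 1.78 ± 0.868 RPKM (adjusted p = 0.00197), and FURIN, a protease that activates secreted precursors, from 30.0 ± 8.03 to 2.53 ± 1.68 RPKM (adjusted p = 1.34e-04). The RNase A family had 8 genes, of which 7 were tested and 3 fell. RNASE10 stood at 21.6, 1.52, 15.2 and 16.8 RPKM on day 10 and was listed at 0 in all 4 day 20 libraries (adjusted p = 8.13e-05), and the member listed as RNase A family 12, ENSOARG00000019726, stood at 68.4, 22.9, 45.7 and 64.0 RPKM on day 10 and 3.31, 1.19, 0.15 and 5.42 RPKM on day 20 (adjusted p = 0.00263). RNASE4 stood at 17.3, 2.22, 30.9 and 18.0 RPKM on day 10 and 2.18, 1.14, 0.35 and 1.81 RPKM on day 20 and was not called (adjusted p = 0.113). Of 13 tested genes of the mitochondrial genome 0 rose and 4 fell, COX1, CYT.B, MT-ATP6 and ND2. COX1 stood at 6106, 9623, 5197 and 5345 RPKM on day 10 and 1674, 1271, 1395 and 592 RPKM on day 20, highest in replicate 04 (adjusted p = 0.00192). The largest changes among genes with no symbol or description were a fall of ENSOARG00000004579 (log2 change -7.28) and a rise of ENSOARG00000014413 (log2 change 5.14).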
